A study of Mus musculus with 151 samples.

Results

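The nuclear genes for the machinery that copies, packages and transcribes mitochondrial DNA were followed in ovaries, germ cells and cumulus cells of female mice conceived by in vitro fertilization (IVF) or by natural mating (Natural). The 10 genes, out of 35976 listed in each of 7 count tables, were Tfam, Tfb1m, Tfb2m, Polrmt, Polg, Polg2, Ssbp1, Lrpprc, Slirp and Top1mt. They were picked by name and function, with earlier results of these data known but no measured value in the rule, and all 10 were listed in all 7 tables.

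Mitochondrial DNA encodes a small set of respiratory chain subunits with the ribosomal and transfer RNAs needed to translate them, and every protein that copies or transcribes it is imported from the cytosol. Tfam coats and packages this DNA and also bends its promoters, where Polrmt, the mitochondrial RNA polymerase, and Tfb2m, which melts the promoter, join it. Tfb1m, a relative of Tfb2m, methylates the ribosomal RNA of the small mitochondrial ribosomal subunit. Polg is the DNA polymerase and Polg2 its accessory subunit, Ssbp1 covers single-stranded DNA at the replication fork, and Top1mt relaxes supercoils. Lrpprc and Slirp bind each other and keep mitochondrial mRNAs stable. Growing oocytes accumulate very many copies of mitochondrial DNA, which the early embryo then shares out among its cells.

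Natural offspring came from CF-1 females mated with B6/SJL males, with no embryo transfer. IVF offspring came from eggs of superovulated CF-1 females fertilized with B6/SJL sperm, cultured to the blastocyst stage at 5% CO2 and 5% O2 and transferred to pseudopregnant CF-1 females, so that superovulation, fertilization in vitro, culture and transfer differ together between the groups. Whole ovaries were taken at E18.5 (4 Natural, 6 IVF), 12 weeks (4 Natural, 5 IVF) and 39 weeks (5 Natural, 5 IVF), pools of 100 primordial germ cells (PGCs) at E13.5 (4 Natural, 5 IVF), single oocytes at 12 weeks (36 Natural, 40 IVF) and at 39 weeks (9 Natural, 10 IVF), and pools of 100 cumulus cells, which surround the ovulated oocyte, at 12 weeks (5 Natural, 5 IVF). Adult animals were delivered by cesarean section and fostered, and oocytes and cumulus cells came from females superovulated with eCG and hCG. The study also measured mitochondrial DNA content of such ovaries, which raised the question whether the transcripts of its machinery differ between the groups. The labels give E18.5 for the fetal ovaries of both groups, and so does one passage of the methods, while another puts the collection of IVF fetuses a day later in gestation, so the stage of the IVF fetuses is uncertain by that day. The methods state that the ovaries came from separate animals of several litters, but the labels tie no library to a litter, and for PGC, oocyte and cumulus libraries no source names the animal, so p-values there measure only the spread between libraries, which may be technical.

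Totals ran from 2839022 to 43363799 counts in ovaries, from 2532824 to 8675189 in PGC and cumulus libraries, and from 839781 to 31126357 in single oocytes. Levels are given as CPM, a gene's count relative to the TMM-scaled size of its library (edgeR), within each table. The 12-week oocytes were summed into 5 Natural and 5 IVF sets that share the start of a library name. The labels name no animal for the 39-week oocytes, so these have values and no test. Natural oocytes 6 and 9 at 39 weeks stood apart: 8 oocyte markers (Gdf9, Bmp15, Zp1, Zp2, Zp3, Ooep, Nlrp5 and Figla) summed to 2466 and 4349 CPM in them, and to between 16950 and 46606 CPM in the other 17. In single 12-week oocytes this sum ranged from 1627 to 26397 CPM in Natural and from 3178 to 36614 CPM in IVF. The same sum was 18822 to 23680 CPM in the Natural 12-week oocyte sets, 0.860 to 21.9 CPM in Natural cumulus libraries and 9.84 to 21.4 CPM in Natural PGC libraries, where 4 germ cell markers summed to 2189 to 7513 CPM. IVF ovary 4 at 12 weeks had the lowest total among the ovaries. Natural cumulus replicate 5 carries a library name with the same start as IVF oocyte set 1 and was kept under its Natural label. The other cumulus libraries with numbered names also share their start with an oocyte set, of their own group. The labels do not say whether such libraries share an animal, and comparisons of oocytes with cumulus cells treat them as separate.

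Tfam lies on chromosome 10 at 71225464-71238280 and Polrmt on the same chromosome at 79736123-79746581, both on the minus strand (mm10). Tfb1m (chromosome 17, 3519256-3557781), Tfb2m (chromosome 1, 179528055-179546267), Polg (chromosome 7, 79446231-79466362), Polg2 (chromosome 11, 106768253-106779537), Lrpprc (chromosome 17, 84705247-84790789) and Top1mt (chromosome 15, 75657035-75678800) are also on the minus strand. Ssbp1 (chromosome 6, 40471352-40484700) and Slirp (chromosome 12, 87443896-87452206) are on the plus strand. All counts are sums over exons. In 7 of the 10 genes an annotated gene overlaps on the opposite strand, as Fanci does at the end of Polg over 4034 bases and Snw1 at the end of Slirp over 3132 bases, so in the low-input libraries, whose kit does not mark strand, reads of the partners cannot be told apart. Tfam, Polrmt and Ssbp1 overlapped no annotated gene.

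The promoters were searched for the binding motifs of NRF1 and of the ETS factors (the family of GABP), both known regulators of nuclear genes for mitochondria, because several of these genes differed in 1 direction between oocytes and other cells. RefSeq promoters (GRCm38.p6, 250 bases before to 50 bases after the start) were matched for 9 of the 10 genes. The NRF1 core GCATGCGC, on either strand, was present in 2 of the 9, Tfb2m and Polrmt, against 2.71% of 32851 promoters. The ETS core CCGGAAG, on either strand, was present in 6 of the 9 (Tfam, Polrmt, Polg, Polg2, Ssbp1 and Slirp), against 8.86% of all promoters. In these 6 genes the match nearest to the start began between positions -47 and -11. Tfb1m and Lrpprc held neither motif. No match overlapped another. Shown are the promoters of Tfb2m and Tfb1m, which stood apart from the other 8 genes in oocytes, and of Slirp and Polrmt, which had the most matches. Each runs 5′ to 3′ on the gene's strand and ends 30 bases into the transcript, with NRF1 and ETS matches in capitals.
Tfb2m, chr1:179546247-179546526, minus strand: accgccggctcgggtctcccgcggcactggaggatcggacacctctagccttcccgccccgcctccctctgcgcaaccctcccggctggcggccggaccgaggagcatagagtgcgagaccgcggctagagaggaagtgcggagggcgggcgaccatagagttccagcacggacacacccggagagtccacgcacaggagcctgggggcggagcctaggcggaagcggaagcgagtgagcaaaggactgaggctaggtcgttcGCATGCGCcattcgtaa
Tfb1m, chr17:3557726-3558005, minus strand: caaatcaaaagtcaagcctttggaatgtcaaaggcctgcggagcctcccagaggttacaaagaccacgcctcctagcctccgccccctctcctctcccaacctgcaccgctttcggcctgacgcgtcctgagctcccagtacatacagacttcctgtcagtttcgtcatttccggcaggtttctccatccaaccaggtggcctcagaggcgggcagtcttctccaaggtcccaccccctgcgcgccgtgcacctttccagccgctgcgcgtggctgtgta
Slirp, chr12:87443646-87443925, plus strand: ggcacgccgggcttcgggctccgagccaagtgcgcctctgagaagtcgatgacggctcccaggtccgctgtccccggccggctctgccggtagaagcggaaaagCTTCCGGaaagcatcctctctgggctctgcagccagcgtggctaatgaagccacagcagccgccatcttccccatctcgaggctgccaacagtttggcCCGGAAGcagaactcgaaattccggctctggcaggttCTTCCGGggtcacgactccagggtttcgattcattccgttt
Polrmt, chr10:79746552-79746831, minus strand: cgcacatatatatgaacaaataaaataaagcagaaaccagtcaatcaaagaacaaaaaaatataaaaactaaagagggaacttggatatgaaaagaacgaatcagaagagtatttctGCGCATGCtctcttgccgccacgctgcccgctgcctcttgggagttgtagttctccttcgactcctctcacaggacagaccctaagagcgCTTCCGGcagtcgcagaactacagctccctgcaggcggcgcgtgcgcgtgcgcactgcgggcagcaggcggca
In Tfb2m the NRF1 match begins 13 bases after the start. In Polrmt it begins at position -133, with an ETS match at -43, and Slirp holds 3 ETS matches. A match in these letters is a description of the sequence, and binding was not measured.

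Conception by IVF was compared with natural conception in each of 6 replicated settings, asking whether the transcripts of this machinery differ in IVF offspring. No gene of the 10 passed the test (edgeR quasi-likelihood, Benjamini-Hochberg adjusted p under 0.05 over all genes) in ovaries at any of the 3 ages, in PGCs, in 12-week oocyte sets or in cumulus cells, and DESeq2 also called 0 in each. In all 6 settings the Natural and IVF ranges overlapped for every gene of the 10. The number of genes tested was 10 of 10 in the ovaries and PGCs, 9 in 12-week oocytes, where Top1mt was too low, and 8 in cumulus cells, where Tfb1m and Polg2 were too low.

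In E18.5 ovaries 0 of 10 genes were called by edgeR, against 5.43% of 16415 genes tested, and 0 by DESeq2, against 10.6%. By both tools 1 of the 10, Slirp, was under an unadjusted p of 0.05, against 24.1% of all genes by edgeR. Groups were apart for 0 of the 10, against 8.61% of all genes. Slirp stood at 7.58, 10.3, 10.9 and 13.0 CPM in the 4 Natural ovaries and at a lowest of 4.93, a median of 6.69 and a highest of 9.79 CPM in the 6 IVF ovaries. The 2 highest IVF ovaries lay inside the Natural range and the other 4 below it, and the log2 fold change was -0.52 ± 0.23 (SE), with an edgeR adjusted p of 0.184 (0.0819 to 0.395 over all settings tried). Its partner Lrpprc stood at 75.3 ± 7.3 CPM without IVF and at 72.5 ± 7.9 CPM with it (SD, n = 4 and 6). Polg had the highest fitted value, 0.19 ± 0.10 on the log2 scale, with an adjusted p of 0.278 and mean levels of 80.0 ± 6.9 CPM in the Natural and 91.2 ± 8.0 CPM in the IVF group. Markers of other cells also differed in level between these groups: 5 erythroid genes summed to 598 to 1600 CPM in Natural ovaries and 1601 to 4580 CPM with IVF, with none of the 5 at 0, and the 8 oocyte markers to 169.3 to 581 CPM in Natural ovaries and 27.1 to 169.2 CPM with IVF. The 4 germ cell markers summed to 165 to 592 CPM in Natural ovaries and 166 to 376 CPM with IVF, ranges that overlapped. The part of all these markers was not tested. In whole tissue, fewer cells of a type cannot be told apart from less RNA per cell.

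In 12-week ovaries 0 of 10 genes were called, against 0.00567% of 17628 genes by edgeR and 3.45% by DESeq2. By either tool 0 of 10 were under an unadjusted p of 0.05, against 14.4% of all genes by edgeR, and groups were apart for 0 of 10, against 6.09%. The fitted change was above 0 for 7 genes and below 0 for 3, with a median of 0.14 on the log2 scale where the median of all genes was 0.0089. Tfb2m, at 11.4, 11.3, 10.8 and 15.7 CPM in Natural ovaries and 13.4, 14.4, 12.9, 16.2 and 17.0 CPM with IVF, had a log2 fold change of 0.26 ± 0.16 (adjusted p = 0.483, edgeR). A single Natural ovary, replicate 4, lay among the IVF values. Tfam averaged 48.2 ± 6.2 CPM in the Natural and 52.8 ± 6.3 CPM in the IVF group, which overlapped. The interval of each difference at 95% reached at most 0.40 to either side of the estimate, so a change of 2-fold in either direction lies outside the interval of all 10 genes here. Oviduct and epithelium markers (Ovgp1, Epcam, Krt8, Krt18 and Cdh1, none at 0) summed to 3372 to 7493 CPM in Natural ovaries and to 93.3 to 2981 CPM with IVF, and their part was not tested.

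In 39-week ovaries 0 of 10 genes were called, against 0.262% of 17186 genes by edgeR and 6.75% by DESeq2. Lrpprc and Top1mt were under an unadjusted p of 0.05 by both tools, 2 of 10 genes against 19.2% of all genes by edgeR. Groups were apart for 0 of the 10, against 5.11% of all genes. Lrpprc stood at 47.9, 51.8, 55.8, 42.9 and 53.2 CPM in Natural ovaries and at 68.5, 63.3, 53.8, 60.5 and 61.8 CPM with IVF. In this comparison 4 IVF ovaries lay above all Natural ovaries and the last lay inside their range, with a log2 fold change of 0.29 ± 0.09 and an adjusted p of 0.148 (0.0854 to 0.284 over all settings tried). Top1mt stood at 21.2, 13.7, 20.0, 17.1 and 17.4 CPM in Natural ovaries and at 11.6, 13.4, 15.8, 11.0 and 14.5 CPM with IVF. Here 4 Natural ovaries lay above all IVF ovaries, and the log2 fold change was -0.43 ± 0.16 (adjusted p = 0.190). Slirp, the partner of Lrpprc, averaged 9.01 ± 1.98 CPM in the Natural and 8.15 ± 1.21 CPM in the IVF group (log2 fold change -0.15 ± 0.19). Luteal and steroidogenic markers (Star, Cyp11a1, Hsd3b1 and Lhcgr, none at 0) summed to 16938 to 27542 CPM in the Natural and 9764 to 20559 CPM in the IVF group, and IVF ovary 1, which had the highest Lrpprc value, also had 8372 CPM of oviduct and epithelium markers, against at most 207.7 CPM in the Natural ovaries. Their part in these values was not tested. Without IVF ovary 1, 0 of 10 genes passed by edgeR.

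**Figure D1:**
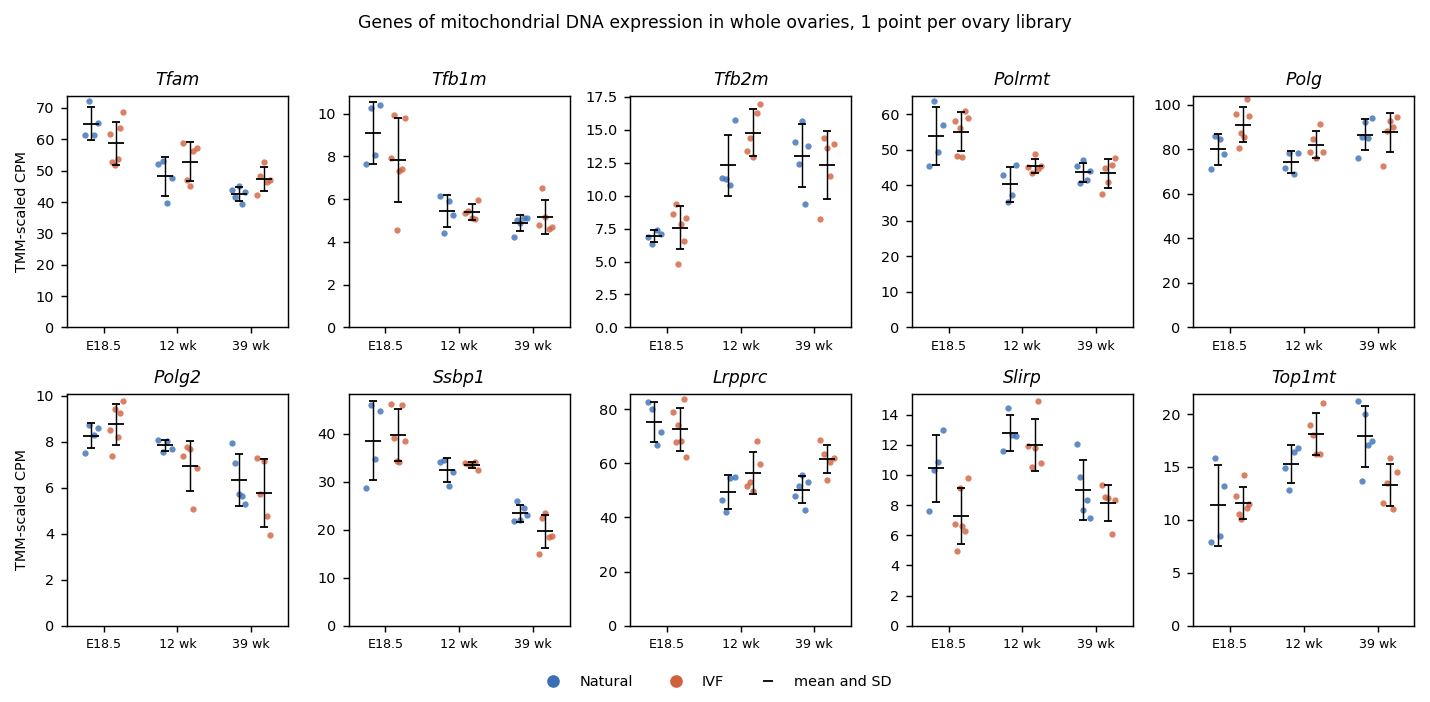
TMM-scaled CPM (vertical axis, from 0) of each gene in whole ovaries of 3 ages (E18.5, then 12 and 39 weeks), with 1 point per ovary and bars for mean and SD (n = 4 to 6). Natural and IVF points overlap in every panel and age, Tfb2m is lower at E18.5 (6.91 ± 0.44 CPM in Natural) than at 12 weeks (12.3 ± 2.3 CPM), and Tfb1m is higher (9.10 ± 1.43 against 5.44 ± 0.76 CPM). Each age is a separate count table.

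Germ cells of IVF and Natural fetuses did not differ detectably in these genes. In E13.5 PGCs 0 of 10 genes were called, against 0% of 12763 genes by edgeR and 0% by DESeq2, and 0 were under an unadjusted p of 0.05 by either tool, against 2.73% of all genes by edgeR. Groups were apart for 0 of the 10, against 1.18% of all genes. Tfam stood at 75.6, 63.3, 99.8 and 77.1 CPM in Natural and at 72.9, 41.2, 66.3, 89.6 and 67.5 CPM in IVF libraries, with the IVF range enclosing most Natural values. Polrmt had the largest fitted change, -0.44 ± 0.31 on the log2 scale, from 58.1 ± 16.1 to 42.7 ± 18.1 CPM. The half-width of the 95% intervals had a median of 0.56 and reached 0.93 for Top1mt, so changes well within these widths were not detectable in these pools.

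In 12-week oocyte sets 0 of the 9 genes tested were called, against 0.0277% of 14444 genes by edgeR and 0.280% by DESeq2. By either tool 0 of 9 were under an unadjusted p of 0.05, against 6.67% of all genes by edgeR, and groups were apart for 0 of 9, against 1.39%. Tfam had the largest fitted change, 1.07 ± 0.61 on the log2 scale (edgeR adjusted p = 0.815). Its levels were 1.65, 5.52, 1.09, 2.68 and 2.88 CPM in the Natural sets and 1.91, 3.20, 18.1, 3.54 and 2.64 CPM in the IVF sets. A single IVF set of 8 oocytes, replicate 3, held the high value, and without it the log2 fold change was 0.0088. This set also had the lowest summed oocyte markers of the 10 sets, 14303 CPM. Within that set Tfam ranged from 0 to 67.5 CPM among oocytes and was detected in 6 of 8. Top1mt was detected in all 5 Natural sets, at 0.0766 to 0.491 CPM, and in 2 of 5 IVF sets, and was too low to test. Tfb2m, the most abundant of the genes per kilobase in these cells, was at 13.3 ± 3.1 CPM in Natural and 14.7 ± 2.2 CPM in IVF sets, with a log2 fold change of 0.14 ± 0.19 and a 95% interval from -0.27 to 0.56.

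In 12-week cumulus cells 0 of the 8 genes tested were called, against 0.00973% of 10280 genes by edgeR and 0.455% by DESeq2. Groups were apart for 0 of these 8, against 0.759% of all genes. Tfam was under an unadjusted p of 0.05 by both tools, 1 of 8 genes against 6.08% of all genes by edgeR. It stood at 8.21, 9.46, 19.9, 14.5 and 16.7 CPM in Natural and at 11.6, 10.6, 10.7, 6.57 and 6.65 CPM in IVF libraries, resting on 31 to 114 counts. Of the Natural libraries 3 were above all IVF libraries and 2 lay among them, with a log2 fold change of -0.55 ± 0.22 (adjusted p = 0.723, edgeR with library set as a covariate, and 0.578 to 1.00 over all settings tried). Polrmt, the polymerase that works with Tfam, was at 22.2 ± 3.9 CPM in Natural and 27.8 ± 4.4 CPM in IVF libraries (log2 fold change 0.32 ± 0.18, adjusted p = 0.848). Lrpprc varied widely, from 2.41 to 31.3 CPM among Natural and from 3.61 to 25.8 CPM among IVF libraries. Granulosa and cumulus markers (Foxl2, Fshr, Amh, Inha, Inhba, Cyp19a1, Has2 and Ptx3) summed to 1112 to 2072 CPM in Natural and 1531 to 1979 CPM in IVF libraries.

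**Figure D2:**
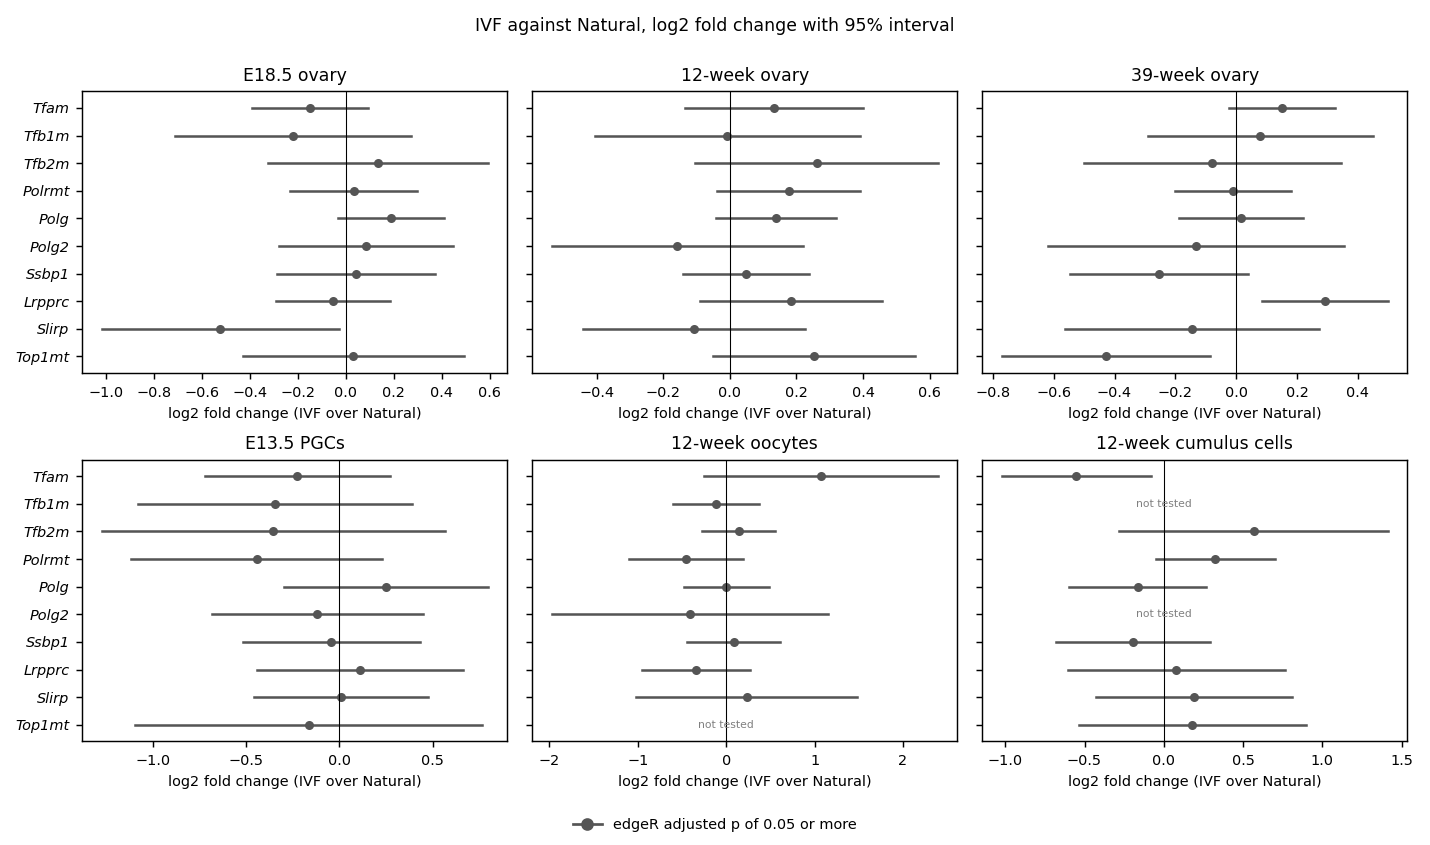
Log2 fold change of IVF over Natural (horizontal axis) for the 10 genes in 6 settings, with points for the edgeR estimate and lines for its 95% interval. All points are grey, meaning an adjusted p of 0.05 or more; Slirp at E18.5, Lrpprc and Top1mt at 39 weeks and Tfam in cumulus cells are the only intervals that leave out 0, and each axis has its own scale.

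Differences of the IVF effect between settings were tested as interaction terms. Between 12 and 39 weeks of ovary 0 of 10 genes were called by edgeR, against 2.71% of 19724 genes, with 1 under an unadjusted p of 0.05, against 20.0%. That gene was Top1mt, whose IVF effect was 0.25 ± 0.14 at 12 weeks and -0.43 ± 0.16 at 39 weeks, a difference of -0.68 ± 0.24 on the log2 scale (edgeR adjusted p = 0.0997). DESeq2 called it, with an adjusted p of 0.0407, as 1 of 10 genes against 7.81% of all genes. Between E18.5 and 12 weeks 0 of 10 were called, against 0.314% of genes by edgeR and 1.94% by DESeq2, with 1 under an unadjusted p of 0.05 against 14.0%: the IVF effect on Tfam was 0.30 ± 0.14 higher at 12 weeks (adjusted p = 0.333). Both comparisons use the same 12-week ovaries. Between cumulus cells and oocytes 0 of 10 were called, against 0.0204% by edgeR and 0.0586% by DESeq2, and Tfam again was the gene under an unadjusted p of 0.05, against 5.82% of all genes, with a difference of 1.67 ± 0.75 (adjusted p = 0.822) that was 0.64 (adjusted p = 1.00) without IVF oocyte set 3. DESeq2 had 2 genes, Tfam and Polrmt, under an unadjusted p of 0.05 there. Between PGCs and oocytes 0 of 10 were called and 0 were under an unadjusted p of 0.05 by either tool, against 0% adjusted and 7.18% unadjusted by edgeR and 0.227% by DESeq2.

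Partners were also compared within each library, since a ratio of 2 genes in a library does not depend on how libraries are scaled. The log2 ratios Lrpprc to Slirp, Polg to Polg2, Tfb2m to Tfb1m and Tfam to Polrmt gave 24 relations over the 6 settings. After Benjamini-Hochberg adjustment 0 of 24 passed, with the lowest adjusted p at 0.245 (two-sided exact permutation test). Unadjusted, 4 were under 0.05. Tfam to Polrmt was 1.21 in Natural and 1.06 in IVF ovaries at E18.5 (exact permutation p = 0.0286), 0.595 and 0.328 in cumulus cells (p = 0.0238, exact permutation test), and 0.975 in Natural and 1.09 in IVF ovaries at 39 weeks (p = 0.0317, exact permutation test). The direction was thus not the same in the 3 settings. Tfb2m to Tfb1m was 0.767 in Natural and 0.976 in IVF ovaries at E18.5 (exact permutation p = 0.0429). These are geometric means of ratios of counts, not of levels per length.

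The age of the ovary was compared in Natural animals, to place the IVF comparison beside the change over life. From E18.5 to 12 weeks Tfb2m and Top1mt were higher at 12 weeks and Tfb1m, Lrpprc, Tfam and Polrmt lower, 2 genes up and 4 down of 10, where 25.3% of all 19724 genes were called higher and 24.3% lower. DESeq2 also called 6. Tfb2m rose 1.88-fold (log2 difference 0.91 ± 0.21, edgeR adjusted p = 0.000646), from 6.83, 6.35, 7.38 and 7.10 CPM at E18.5 to 11.4, 11.3, 10.8 and 15.7 CPM at 12 weeks, with no overlap between ages. Its paralogue Tfb1m fell 1.57-fold (-0.65 ± 0.20, adjusted p = 0.00795), from 7.66, 10.2, 8.08 and 10.4 CPM to 6.13, 4.44, 5.92 and 5.27 CPM. Lrpprc fell 1.44-fold (-0.53 ± 0.12, adjusted p = 0.000504), from 75.3 ± 7.3 to 49.4 ± 6.4 CPM. Tfam fell 1.27-fold (adjusted p = 0.00815) and Polrmt 1.26-fold (adjusted p = 0.0106), while Top1mt rose 1.43-fold (adjusted p = 0.0216). Polg, Polg2, Ssbp1 and Slirp were not called, with log2 differences of -0.02 ± 0.09, 0.01 ± 0.19, -0.16 ± 0.14 and 0.38 ± 0.20. The Top1mt call was lost without E18.5 Natural ovary 1 (adjusted p = 0.0824) or 3 (0.0897), or without 12-week Natural ovary 3 (0.0536) or 4 (0.0944), and the Polrmt call without E18.5 Natural ovary 2 (0.1004) or 12-week Natural ovary 2 (0.0539) and with no filter on low counts (0.0547), all by edgeR.

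Cell makeup moved with these differences. In Natural ovaries the 4 germ cell markers summed to 165 to 592 CPM at E18.5 and to 9.38 to 21.1 CPM at 12 weeks, and the 4 luteal and steroidogenic markers to 18.4 to 47.4 CPM and 10472 to 18759 CPM, with no marker at 0 in all ovaries. The oviduct and epithelium markers summed to 269 to 686 CPM at E18.5, 3372 to 7493 CPM at 12 weeks and 56.1 to 208 CPM at 39 weeks. Their part in the differences was not tested, and age cannot be told apart from count table.

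From 12 to 39 weeks fewer of the 10 genes were called. Polg was called higher, 1 of 10 genes where 10.0% of all genes were called higher, and 0 were called lower, where 11.6% were. Polg rose 1.27-fold (0.35 ± 0.09, edgeR adjusted p = 0.00690), from 71.5, 78.2, 69.0 and 78.5 CPM at 12 weeks to 76.0, 85.5, 92.5, 85.3 and 94.1 CPM at 39 weeks. All but 1 of the 39-week ovaries were above all 12-week ovaries. Ssbp1 was at 32.4 ± 2.5 and 23.4 ± 1.8 CPM, ranges that did not overlap, with a log2 difference of -0.34 ± 0.13 in the joint fit (edgeR adjusted p = 0.0597, DESeq2 0.0433). Without the Natural 12-week ovary 4, Polrmt was called as well (0.35 on the log2 scale, adjusted p = 0.0326), which made 2 genes. Tfam, Tfb1m and Tfb2m differed by -0.05 ± 0.10, -0.03 ± 0.19 and 0.21 ± 0.19.

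Per kilobase of exon, Lrpprc, Tfam and Polrmt had the highest levels in Natural E18.5 ovaries, at 17.1 (15.2 to 18.8), 15.6 (14.7 to 17.3) and 14.3 (12.1 to 17.0) CPM per kilobase, ranges that overlapped. Polg followed at 10.2 CPM per kilobase, apart from its neighbours on both sides. Slirp and Tfb2m were lowest, at 3.87 and 2.82 CPM per kilobase, with overlapping ranges. At 12 weeks Tfam, Lrpprc, Polrmt, Polg and Top1mt formed a chain of overlapping ranges from 11.6 down to 8.02 CPM per kilobase, and the other 5 genes another from 5.81 down to 3.88. At 39 weeks the same 5 genes led, from 11.6 (Polrmt) to 9.40 (Top1mt) CPM per kilobase, apart from Tfb2m at 5.32.

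Oocytes were next set against the earlier germ cell stage and against the cells around them. In Natural 12-week oocyte sets against Natural E13.5 PGCs, 8 of 10 genes were lower and 1, Tfb2m, was higher, where 37.2% of all 17368 genes were called lower and 38.9% higher. DESeq2 also called 9. The all-gene median was -0.088 on the log2 scale, and -0.22 with size factors of the DESeq2 type in edgeR. The RNA-binding partners fell 36.3-fold for Slirp (log2 difference -5.18 ± 0.40, edgeR adjusted p = 2.01e-10) and 13.2-fold for Lrpprc (-3.72 ± 0.27, 7.46e-11). Slirp was at 26.8, 38.1, 38.4 and 35.9 CPM in PGC libraries and at 0.153, 0.128, 0.546, 0.364 and 0.273 CPM in oocyte sets, where it rested on 5 to 16 counts a set. Lrpprc was at 292, 159, 217 and 295 CPM in PGCs and at 4.27, 5.62, 7.48, 4.04 and 5.66 CPM in oocyte sets. The replication genes were lower as well, by 17.6-fold for Polg2, 12.3-fold for Ssbp1, 9.49-fold for Top1mt and 9.42-fold for Polg. In Natural oocyte sets Polg2 rested on only 2 to 33 counts a set and Top1mt on 4 to 17. Polg stood at 290, 187, 241 and 208 CPM in PGCs and at 6.59, 6.49, 8.89, 7.11 and 6.96 CPM in oocytes, with no overlap. Of the transcription genes Tfam was 8.21-fold and Polrmt 2.74-fold lower, Tfb1m did not pass (log2 difference -0.28 ± 0.32, adjusted p = 0.420) and Tfb2m was 3.95-fold higher (1.98 ± 0.34, adjusted p = 2.29e-05). Tfb2m was at 6.40, 6.00, 18.7 and 14.8 CPM in PGCs and at 11.6, 18.0, 13.8, 13.8 and 9.51 CPM in oocytes as scaled within each table, ranges that overlap. Scaled in the same way, Tfb1m was at 11.1 to 20.3 CPM in PGCs and 3.45 to 4.64 CPM in oocytes, with no overlap. All fold differences between PGCs and oocytes given here come from the joint scaling of both tables and depend on it.

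Against Natural cumulus cells of the same age, 7 of 10 genes were lower in Natural oocytes and 2, Tfb2m and Tfb1m, higher, where 39.5% of all 14719 genes were called lower and 45.3% higher, and the all-gene median was 0.27 on the log2 scale. DESeq2 also called 9. Tfb2m was 6.17-fold higher (2.62 ± 0.30, edgeR adjusted p = 4.94e-08), with cumulus libraries at 2.66, 2.58, 3.67, 3.72 and 3.92 CPM. Tfb1m was 4.14-fold higher (2.05 ± 0.39, adjusted p = 5.12e-05), from 0.413 to 2.45 CPM in cumulus libraries and 3.45 to 4.64 CPM in oocyte sets, on 2 to 14 counts a cumulus library. Slirp was 28.0-fold lower (-4.81 ± 0.47) and Top1mt 16.8-fold lower (-4.07 ± 0.77). Polg2, Ssbp1, Tfam, Polrmt and Polg were lower by 5.70-fold, 3.34-fold, 3.23-fold, 2.31-fold and 2.22-fold. Slirp, Top1mt and Polg2 rested on the same few oocyte counts as above. Lrpprc did not pass (-0.71 ± 0.54, adjusted p = 0.219), and did when only cumulus libraries with numbered names were used (adjusted p = 0.0289). With no filter on low counts the Polg call was lost (adjusted p = 0.0561). The fold differences between oocytes and cumulus cells also come from the joint scaling of both tables.

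**Figure D3:**
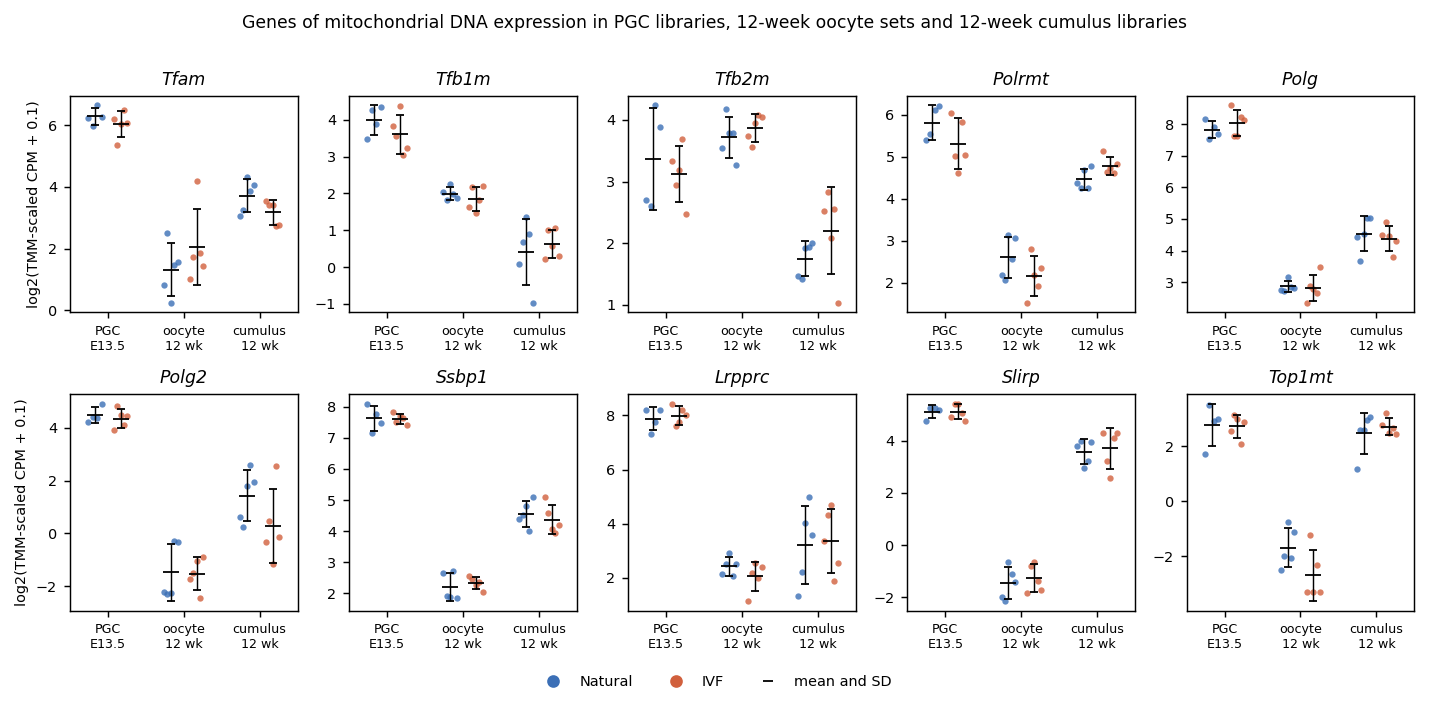
Log2 of TMM-scaled CPM plus 0.1 (vertical axis) in E13.5 PGC libraries, 12-week oocyte sets and 12-week cumulus libraries, with 1 point per library or set and bars for mean and SD (n = 4 or 5). Each cell type is a separate count table scaled on its own, and separations between cell types depend on that scaling. As plotted, Slirp, Polg and Ssbp1 are lower in every oocyte set than in any PGC or cumulus library. Tfam is so in all sets but IVF set 3 (18.1 CPM). Tfb2m in cumulus cells (3.31 ± 0.64 CPM in Natural) is below oocytes (13.3 ± 3.1 CPM), and Natural and IVF points overlap.

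**Figure D4:**
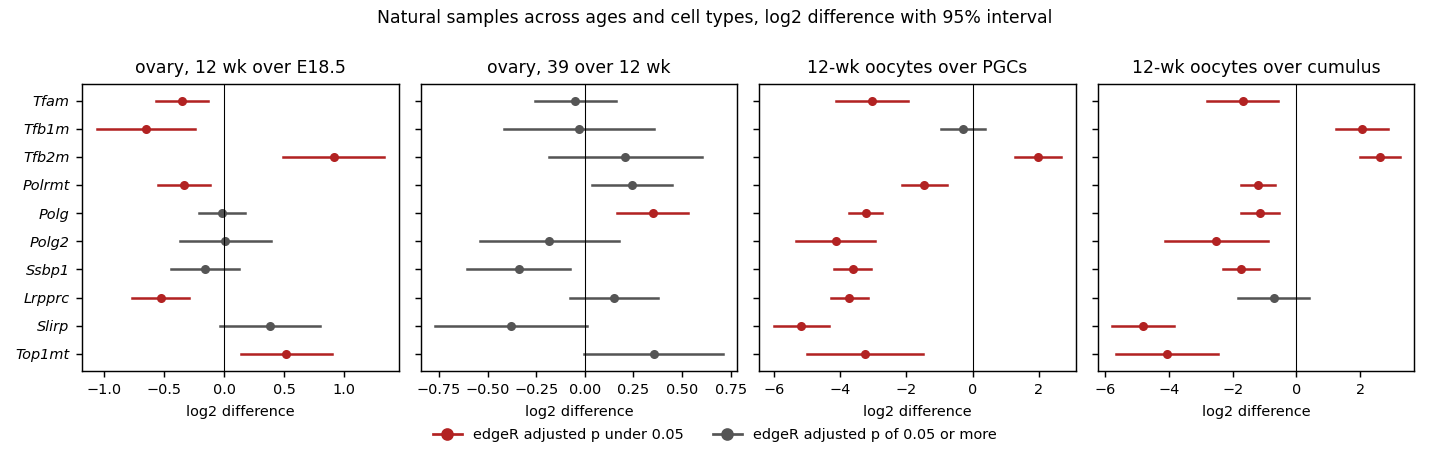
Log2 difference between Natural samples (horizontal axis, its own scale in each panel) with 95% intervals for 2 ovary age steps and for 12-week oocytes against PGCs and against cumulus cells. Red marks an edgeR adjusted p under 0.05; Tfb2m lies to the right in the oocyte panels, at 1.98 and 2.62, while Slirp lies farthest to the left, at -5.18 and -4.81.

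The order of levels per kilobase differed between these cells. In Natural oocyte sets Tfb2m led at 5.44 (3.88 to 7.35) CPM per kilobase, followed by Tfb1m at 2.79 (2.46 to 3.31), each apart from its next neighbour. Polrmt (1.67), Lrpprc (1.23), Polg (0.920), Ssbp1 (0.842) and Tfam (0.663) followed with overlapping ranges, and Polg2 (0.232), Top1mt (0.128) and Slirp (0.108) were lowest. In Natural PGCs Lrpprc (54.8), Ssbp1 (36.4) and Polg (29.6) led and Tfb2m (4.69) and Top1mt (3.95) were lowest, apart from Tfb1m at 11.6. In Natural cumulus cells Polrmt (5.92), Slirp (4.58) and Ssbp1 (4.35) led with overlapping ranges, and Tfb1m (1.01) was lowest. These orders compare genes within a table.

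Single oocytes showed how unevenly these transcripts were detected. At 12 weeks Tfb2m had counts in all 36 Natural and all 40 IVF oocytes, and Tfam in 35 of 36 and 37 of 40. Slirp had counts in 19 of 36 Natural and 19 of 40 IVF oocytes, Polg2 in 14 and 17, and Top1mt in 12 and 6. The share of a group's Tfam counts held by a single oocyte was 17.7% in Natural and 18.1% in IVF, against 5.76% and 6.40% for Tfb2m. Tfam exceeded 20 CPM in 2 Natural and 4 IVF oocytes. Oocytes of a set are not replicates, and these shares carry no test.

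At 39 weeks the groups have 1 pooled value each, in CPM of the summed library totals (107931940 Natural, 179128096 IVF) with exact Poisson 95% intervals that cover counting error only. Even counts made up 55.4% to 79.0% of the nonzero counts of a library across the series, so the intervals cover less than they state. Tfam was at 8.49 (7.95 to 9.05) CPM in Natural and 1.36 (1.20 to 1.54) CPM in IVF oocytes. Of the Natural counts 77.1% came from oocyte 9, and without oocytes 6 and 9 the Natural value was 2.38 (2.05 to 2.75) CPM. Polg was at 7.62 (7.10 to 8.15) CPM in Natural and 1.07 (0.926 to 1.23) CPM in IVF, with 61.3% of the Natural counts in oocyte 6, and at 4.11 (3.67 to 4.59) CPM in Natural without the same 2 oocytes. Both pooled values were still lower in IVF oocytes without them, by 1.75-fold and 3.84-fold in place of 6.23-fold and 7.11-fold, a subset chosen after seeing the data. Of the 318 Polg counts then left in Natural, 165 came from oocyte 2. Medians over all oocytes of a group were 2.12 CPM in Natural and 1.38 CPM in IVF for Tfam. For Polg they were 1.43 and 0.765 CPM.

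Tfb2m and Tfb1m were higher in the IVF pool. Tfb2m was at 6.85 (6.36 to 7.36) CPM in Natural and 14.3 (13.7 to 14.9) CPM in IVF, with single oocytes from 1.34 to 11.5 and from 7.25 to 28.9 CPM. Tfb1m was at 4.50 (4.11 to 4.92) and 10.1 (9.67 to 10.6) CPM, with counts in 8 of 9 Natural and 10 of 10 IVF oocytes. IVF oocyte 8 held 35.1% of the IVF Tfb2m counts and 28.4% of the IVF Tfb1m counts. The top Natural oocyte of each gene held 28.7% and 17.1%. Polrmt was at 9.00 (8.44 to 9.58) and 9.65 (9.20 to 10.1) CPM, with intervals that overlap, and at 12.5 CPM in Natural without oocytes 6 and 9, which turns the direction. Ssbp1 was at 5.44 and 2.86 CPM and Lrpprc at 1.99 and 3.18 CPM. Without oocytes 6 and 9 Ssbp1 was at 4.28 (3.83 to 4.77) CPM in Natural and Lrpprc at 2.76 (2.40 to 3.15) CPM. The Lrpprc interval then overlapped that of IVF (2.92 to 3.45 CPM). Polg2 (0.0927 and 0.899 CPM), Slirp (0.287 and 0.0893 CPM) and Top1mt (0.0556 and 0.257 CPM) rested on 6 to 161 counts a group. In Polg2 71.4% of the IVF counts came from a single oocyte, again IVF oocyte 8. There is no replicate check at this age, and no comparison with 12 weeks was made. The 5 erythroid genes summed to 107.8 to 21266 CPM in Natural and to 2.79 to 28549 CPM in IVF oocytes, and their part in these values was not tested.

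**Figure D5:**
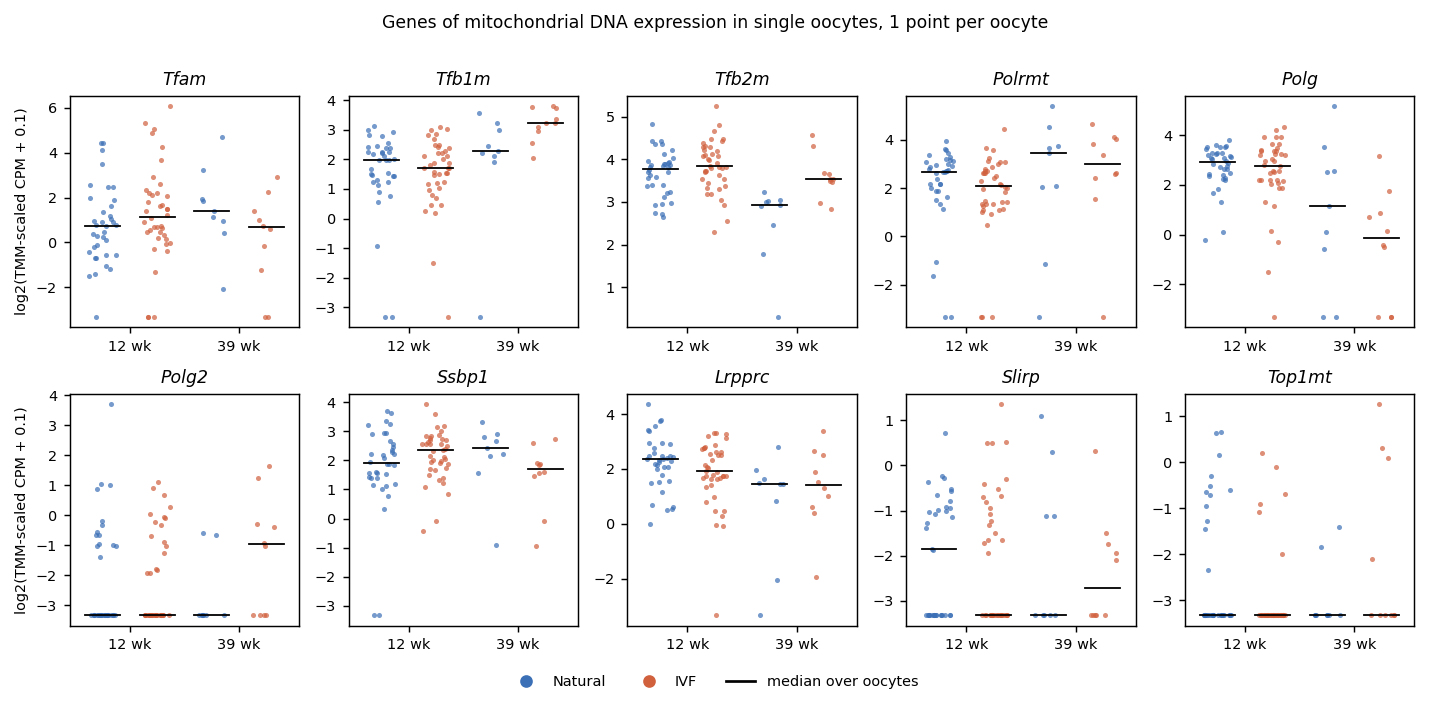
Log2 of TMM-scaled CPM plus 0.1 (vertical axis) in single oocytes at 12 weeks (36 Natural, 40 IVF) and 39 weeks (9 Natural, 10 IVF), with 1 point per oocyte and lines for medians; the lowest points have no counts. Slirp, Polg2 and Top1mt have many oocytes with no counts, and Tfb2m has counts in all 76 oocytes at 12 weeks.

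Other genes of the same pathway were taken as lists: 49 nuclear genes of mitochondrial DNA replication, RNA processing and nucleoid upkeep, 10 upstream regulators and 13 protein-coding genes of mitochondrial DNA itself. In E18.5 ovaries 1 of 49 pathway genes was called between IVF and Natural, Hsd17b10, a subunit of the enzyme that trims mitochondrial transfer RNAs, at 93.3 ± 8.8 CPM in Natural ovaries and 70.3 ± 5.8 CPM with IVF (SD, n = 4 and 6; log2 fold change -0.41 ± 0.10, edgeR adjusted p = 0.0346). The median of the list was -0.027 against 0.00021 for all genes. DESeq2 called 4 pathway genes there, fewer for a list of 49 than the 10.6% of all genes it called. In the other 5 settings edgeR called 0 pathway genes, and in all 6 settings 0 regulators and 0 mitochondrially encoded genes. DESeq2 called 2 pathway genes, 1 regulator and 1 mitochondrially encoded gene in 39-week ovaries, where it called 6.75% of all genes. It called 0 regulators and 0 mitochondrially encoded genes at E18.5, and 0 of any list in 12-week ovaries, PGCs, oocytes and cumulus cells. Under an unadjusted p of 0.05 by edgeR were 6 of 49 pathway genes in E18.5 ovaries (24.1% of all genes), 5 of 49 in 12-week ovaries (14.4%), 8 of 49 in 39-week ovaries (19.2%), 0 of 47 in PGCs (2.73%), 2 of 46 in 12-week oocytes (6.67%) and 1 of 42 in cumulus cells (6.08%). In each setting the list's share was below that of all genes. The regulators had 2, 2, 2, 0, 1 and 0 genes under it in E18.5, 12-week and 39-week ovaries, PGCs, oocytes and cumulus cells. For the IVF effect in ovary at 39 against 12 weeks, edgeR called 1 of 49 pathway genes, against 2.71% of all genes, and DESeq2 5, against 7.81%. The gene called by edgeR was Endog, a mitochondrial nuclease, whose IVF effect was 1.54 ± 0.42 higher at 39 than at 12 weeks (edgeR adjusted p = 0.0467). Oviduct and epithelium markers also differed between the groups at 12 weeks, as given above, and their part was not tested.

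The transcripts that this machinery makes were read less completely, with 7 of 13 mitochondrially encoded genes tested in ovaries. In 39-week ovaries all 7 had fitted values below 0, with a median of -0.68 on the log2 scale where the all-gene median was 0.027. By edgeR 5 of them were under an unadjusted p of 0.05, against 19.2% of all genes, and 0 were called after adjustment. These 7 are transcribed from the same DNA and are not separate observations. The luteal and steroidogenic markers, given above, were also at lower sums in IVF ovaries of this age, and their part was not tested. The share of all counts on these genes was 3.72% ± 1.22 in Natural and 2.53% ± 0.41 in IVF ovaries (SD, n = 5 each), with overlapping ranges of 2.49% to 5.34% and 1.88% to 2.91%. At 12 weeks the shares were 2.25% ± 0.26 and 2.32% ± 0.44, and at E18.5 1.17% ± 0.21 and 1.16% ± 0.36. In PGCs 9 of the 10 fitted values lay above 0, with a median of 0.37 and 0 under an unadjusted p of 0.05. The PGC share was 5.90% ± 1.12 in Natural and 8.00% ± 4.56 in IVF libraries (SD, n = 4 and 5). The median shares were 6.06% and 6.20%, and the highest IVF library was at 16.0%. In 12-week oocyte sets 2 of 9 fitted values lay above 0 (median -0.29), with shares of 0.447% ± 0.148 and 0.334% ± 0.116. Single 39-week oocytes, with no test, had shares of 0.234% to 1.00% in Natural and 0.114% to 0.336% in IVF. Cumulus cells had a median of 0.022 and shares of 2.99% ± 0.55 and 3.20% ± 0.82.

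In Natural contrasts the pathway genes and regulators split in both directions. Between oocytes and PGCs 18 pathway genes were higher and 22 lower of 49, where 38.9% of all genes were higher and 37.2% lower, with Rrm2b, a ribonucleotide reductase subunit, 128-fold higher and Tefm, the mitochondrial transcription elongation factor, 19.9-fold lower. Of the regulators 3 were higher and 4 lower of 10, with Gabpb1 2.81-fold higher and its partner Gabpa 24.4-fold lower. Between oocytes and cumulus cells, where 45.3% of all genes were higher and 39.5% lower, 25 pathway genes were higher and 16 lower of 49, and 5 regulators higher and 4 lower of the 9 tested. Of the mitochondrially encoded genes 8 of 11 were lower in oocytes than in PGCs and 0 higher, and against cumulus cells 6 of 9 were lower and 1 higher. From E18.5 to 12 weeks of ovary 13 of 49 pathway genes rose and 4 fell, against 25.3% and 24.3% of all genes, Nrf1 fell 1.71-fold (-0.77 ± 0.09, adjusted p = 1.80e-07), and 5 of the 7 mitochondrially encoded genes rose. From 12 to 39 weeks 3 of 49 pathway genes rose and 3 fell, against 10.0% and 11.6% of all genes, 1 regulator, Yy1, rose 1.28-fold, and again 5 of the 7 mitochondrially encoded genes rose. The examples are among the 3 largest changes in each direction of a list.

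Across Natural samples each gene had its own range of levels, set here side by side from separately scaled tables. Ovaries and the low-input samples also differed in library protocol, and no fit joined them. Tissue, protocol and scaling thus cannot be told apart where these levels are set against each other. Tfam was at 65.0 ± 5.2, 48.2 ± 6.2 and 42.6 ± 2.2 CPM in ovaries at E18.5, 12 and 39 weeks, 78.9 ± 15.2 CPM in PGCs, 13.8 ± 4.9 CPM in cumulus cells and 2.76 ± 1.71 CPM in oocyte sets (SD, n = 4 or 5). Polrmt was at 53.9 ± 8.2, 40.3 ± 4.9 and 43.7 ± 2.7 CPM in the ovaries, 58.1 ± 16.1 CPM in PGCs, 22.2 ± 3.9 CPM in cumulus cells and 6.26 ± 2.13 CPM in oocytes. Both were highest in PGCs, with ranges that overlapped the E18.5 ovaries, and lowest in oocytes. Ssbp1, which coats single-stranded DNA, was at 38.5 ± 8.2, 32.4 ± 2.5 and 23.4 ± 1.8 CPM in the ovaries, 203 ± 56.2 CPM in PGCs, 24.3 ± 7.0 CPM in cumulus cells and 4.70 ± 1.52 CPM in oocytes. Polg2, the accessory subunit of the polymerase, was at 8.27 ± 0.55, 7.84 ± 0.25 and 6.33 ± 1.13 CPM in the ovaries, 22.5 ± 5.1 CPM in PGCs, 3.09 ± 1.93 CPM in cumulus cells and 0.350 ± 0.330 CPM in oocytes. For Ssbp1 and Polg2 the PGC range lay above all ovary ranges. Top1mt differed in this, with 11.4 ± 3.8, 15.3 ± 1.8 and 17.9 ± 2.9 CPM in the ovaries against 7.51 ± 3.37 CPM in PGCs, ranges that overlapped between PGCs and E18.5 ovaries.

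Across the 29 ovary libraries the 10 genes did not share a single profile. The Pearson r of each gene with the mean of the other 9 ranged from -0.27 for Tfb2m to 0.48 for Tfam. The genes most like the mean profile of the 10, among 19714 genes, were Gpn3 (r = 0.74), Ube2q2 (0.72), Tbc1d20 (0.71), Vps26a (0.70) and Psma8 (0.69), a description over libraries that share age groups, tissue and tables.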

How the data were processed

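RNA was sequenced from whole ovaries with a stranded mRNA kit and from single oocytes and pools of 100 PGCs or 100 cumulus cells with a SMART-seq protocol that does not mark strand. The deposited values are raw read counts per gene. Per the labels, the authors' processing used Trimmomatic 0.32, STAR 2.3.0e, featureCounts 1.5.0 and mm10, with DESeq2 also listed. Each of the 7 tables lists 35976 gene names. Totals ranged from 839781 to 43363799 counts per library, and shallow libraries have larger counting error.

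Samples were grouped by their labels. Members, by name and function, and gene lists were chosen with earlier results of these data known. The genes named in the text are the 10 members, list genes among the 3 largest changes in each direction, and the 5 genes most like the members' mean profile. IVF was compared with Natural within each table by the quasi-likelihood test of edgeR 4.0.16 (R 4.3.3; TMM, filterByExpr, Benjamini-Hochberg over all genes, adjusted p under 0.05). All 29 ovary libraries entered the ovary fit, in place of the 28 first counted. Cumulus cells had library set as a covariate. The 12-week oocytes were summed into 10 sets. Tables were joined for contrasts of age and cell type and for interaction terms, so that age or cell type cannot be told apart from table. Ratios used exact permutation tests with 0.5 added to each count. Alternatives were DESeq2 1.42.0, its size factors in edgeR, no filter, each replicate left out and a replicate block. The fits were tested on simulated data with 200 changed genes: of genes changed by 1 on the log2 scale 57% were recovered in E18.5 ovaries (16415 genes), 45% in 12-week ovaries (17628 genes), 50% in 39-week ovaries (17186 genes), 11% in PGCs (12763 genes), 31% in oocyte sets (14444 genes) and 37% in cumulus cells (10280 genes).

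The labels' replicate numbers were not used to pair samples in the main fits. The correlation of same-numbered libraries ran from -0.44 to 0.56, which does not settle whether they are pairs. The 39-week cumulus libraries and repeated records of cumulus libraries were not analysed here. One 39-week Natural ovary, replicate 5, carries an age of 40 weeks in another label and was kept.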

Additional observations from a re-analysis of the deposited data

Results flagged for a closer look

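In 140 groups of 4 to 10 samples, 11 had a sample whose gap to its nearest neighbour exceeded the critical value of Dixon's test at the 95% level, where chance gives about 7. All values are TMM-scaled CPM. In ovaries these were Tfb2m in Natural 12-week ovary 4 (15.7, nearest 11.4), Tfb1m in Natural 39-week ovary 1 (4.24, nearest 4.89) and Polg in IVF 39-week ovary 1 (72.6, nearest 88.3), the ovary that also had 8372 CPM of oviduct and epithelium markers. In 12-week cells they were Tfam in IVF oocyte set 3 (18.1, nearest 3.54), Polg in Natural oocyte set 3 (8.89, nearest 7.11) and Polg2 in IVF cumulus library 4 (5.75, nearest 1.27). Among single 39-week oocytes they were Tfam in Natural oocyte 9 (26.1, nearest 9.30) and Polg in Natural oocyte 6 (36.1, nearest 11.5), the 2 oocytes with the lowest sums of oocyte markers, and, in IVF oocyte 7, Polg (8.91, nearest 3.28), Slirp (1.15, nearest 0.256) and Top1mt (2.3004, nearest 1.15). IVF oocyte 7 had the lowest total of its age, 2820748 counts.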

How the results depend on the processing

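Under every alternative run, 0 members were called between IVF and Natural in each of the 6 settings. With the replicate block 0 members were called in all 5 settings where it could be fitted. Libraries correlated best with their own number in 0 of 4, 2 of 4 and 3 of 5 pairs in E18.5, 12-week and 39-week ovaries. In PGCs this held in 3 of 4 pairs and in cumulus cells in 0 of 5. So few pairs do not settle whether the numbers pair the samples. DESeq2 called 2 members in place of 1 between Natural ovaries at 39 and 12 weeks, where leaving out 1 ovary gave 1 to 2, and 1 member in place of 0 for the IVF effect at 39 against 12 weeks. The causes were not tested. Depth and spread limit the PGC, oocyte and cumulus values most, with median 95% half-widths of 0.56, 0.61 and 0.55 on the log2 scale against 0.29 to 0.35 in ovaries. Dropping the oocytes with under 3000000 counts at 12 weeks left 0 members called. Leaving out Natural 39-week oocytes 6 and 9 was chosen after seeing the data.

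Some differences near 0 turned sign. Polg was 0.024 without a filter (Natural ovary, 12 weeks against E18.5), where Polg2 was -0.016 by both DESeq2 and its size factors. With the replicate block Polrmt was -0.025 in E18.5 ovaries and Ssbp1 0.038 in PGCs. In 12-week oocytes Polg was -0.016 by DESeq2, -0.017 with its size factors, -0.015 without a filter and -0.036 with deeper oocytes only. In cumulus cells Lrpprc was -0.054 without the library set and -0.064 without the Natural library named like IVF oocytes. Polrmt in 39-week oocytes was -0.21 as a mean of the oocytes' CPM and -0.37 without oocytes 6 and 9.

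Leaving out 1 replicate moved these log2 differences across 0, with the lowest and highest value given. E18.5 ovary: Polrmt -0.043 to 0.12, Ssbp1 -0.075 to 0.14 and Top1mt -0.11 to 0.23. 12-week ovary: Ssbp1 -0.0015 to 0.049 and Tfb1m -0.13 to 0.035. 39-week ovary: Polg -0.031 to 0.075, Polrmt -0.048 to 0.036, Tfb1m -0.020 to 0.12 and Tfb2m -0.18 to 0.036. PGCs: Lrpprc -0.043 to 0.24, Polg2 -0.24 to 0.060, Slirp -0.093 to 0.088, Ssbp1 -0.17 to 0.14 and Top1mt -0.41 to 0.11. Oocytes: Polg -0.20 to 0.11, Polg2 -0.66 to 0.031 and Ssbp1 -0.022 to 0.23. Cumulus cells: Lrpprc -0.070 to 0.41, Slirp -0.087 to 0.38 and Top1mt -0.027 to 0.34. Natural ovaries: Polg -0.092 to 0.036 and Polg2 -0.025 to 0.057 at 12 weeks against E18.5, and Tfb1m -0.12 to 0.028 at 39 against 12 weeks. Of 504 single-gene and level values under other alternatives 461 kept direction and side of the threshold (for levels, moved by less than their spread), 25 moved by more, all in 39-week oocytes, 13 turned sign, and 5 lost or gained a call. Of 1008 that left out a replicate 947 kept both, 54 turned sign, and 7 lost or gained a call.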
